A study of Mus musculus with 12 samples.

Results

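The genes described here encode the eukaryotic translation initiation factors of the mouse. Members were the rows of the count table whose NCBI Gene ID maps to a symbol starting with Eif, pseudogenes left out, which gave 57 of 27179 genes. One pseudogene, *Eif1-ps3*, was removed by this rule. Of the 57 genes, 56 are protein coding. The other, *Eif2c5*, is annotated as a long non-coding RNA and carries an older name of the Argonaute type. The RNA came from 12 tibialis anterior (TA) muscles of male wild-type C57BL/6N mice, taken 7 days after plasmid was electroporated into the muscle. The mice came at 6 to 8 weeks of age and were used within 2 weeks. One TA of each of 6 mice received 10 μg of empty pcDNA3 plasmid (Control muscles, n = 6) and the TA of the other leg received 10 μg of plasmid encoding *FRAIL1*, a human long non-coding RNA (*FRAIL1* muscles, n = 6). All 12 muscles were injected and electroporated alike, so the Control group carries the injury of the procedure, and no untouched muscle was compared. The aim was expression in the muscle fibers, whereas RNA was taken from tissue that holds every cell type of the muscle.

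Translation initiation brings the initiator methionyl-tRNA and the small ribosomal subunit to the start codon of an mRNA. eIF2 carries the tRNA as a complex with GTP, eIF2B recharges eIF2 with GTP, and kinases that phosphorylate eIF2 block that recharging during stress. The cap-binding complex eIF4F is built from the cap-binding protein eIF4E, the scaffold eIF4G and the helicase eIF4A. eIF4E-binding proteins compete with eIF4G for eIF4E until mTORC1 phosphorylates them, which is one way in which growth signals set protein synthesis in skeletal muscle. eIF3, eIF1 and eIF1A hold the scanning complex on the mRNA, and eIF5 and eIF5B act when the start codon has been found.

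Values are CPM, the counts of a gene per 1000000 counts of its library after TMM scaling, and differences are log2 fold changes of *FRAIL1* over Control muscles with their SE. Total counts per muscle lay between 44848322 and 60527385. The same number in both groups is taken to mark the 2 muscles of 1 mouse, and a gene is called where edgeR's quasi-likelihood test gave a Benjamini-Hochberg adjusted p under 0.05 over all 15502 genes tested. *FRAIL1* muscle 5 stood apart from the rest, with a TMM factor of 1.19 against 0.935 to 1.07 in the other 11 muscles and a score of 59.5 on the first principal component, where the next highest muscle had 25.8. It also had the highest summed CPM of 7 regenerating fiber and satellite cell markers, as given further on. The 7 mature fiber markers checked were all abundant, with a summed CPM of 166082 to 193280 in Control and of 123661 to 176948 in *FRAIL1* muscles.

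Few initiation factor genes were called, and most fold changes were small. Of the 54 genes that passed the filter on low counts, 2 were lower in *FRAIL1* muscles (3.70% of those tested), *Eif1* and *Eif4ebp2*, and 0 were higher. Among all genes tested, 1.85% were called lower and 4.43% were called higher. The smallest adjusted p of a gene with a positive difference was 0.0572 (*Eif4a3*), and 12 of the 54 (22.2%) had an unadjusted p under 0.05, against 27.7% of all genes tested. The median log2 fold change of the 54 genes was -0.02, against 0.01 over all genes tested, and 23 had a positive and 31 a negative value. In 50 of the 54 genes the log2 fold change was under 0.2 in size. Without both muscles numbered 5, *Eif1* and *Eif4ebp2* were again the 2 genes called lower, and 0 were higher.

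With the replicate number as a block, which compares the 2 muscles of each number, 5 genes were lower (9.26% of those tested, against 6.62% of all genes) and 2 were higher (3.70%, against 7.48% of all genes). Those lower were *Eif1*, *Eif4ebp2*, *Eif4e3*, *Eif4g1* and *Eif2s2*, and those higher were *Eif3l* and *Eif4a3*. DESeq2's Wald test without a block called 6 of the 54 lower and 2 higher, and it called 5.97% of all genes lower and 8.15% higher. The 7 genes called with the block were all among its 8, and the eighth was *Eif5*. The groups did not overlap in 2 genes, with every *FRAIL1* muscle below every Control muscle, which is 3.70% of the 54 against 1.77% of all genes tested. In 10 genes the *FRAIL1* muscle was the lower of its pair in 6 of 6 numbers, and in 8 genes it was the higher in 6 of 6. How often this held among all genes tested was not counted, so 6 of 6 numbers is a description only, here and below.

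**Figure D1:**
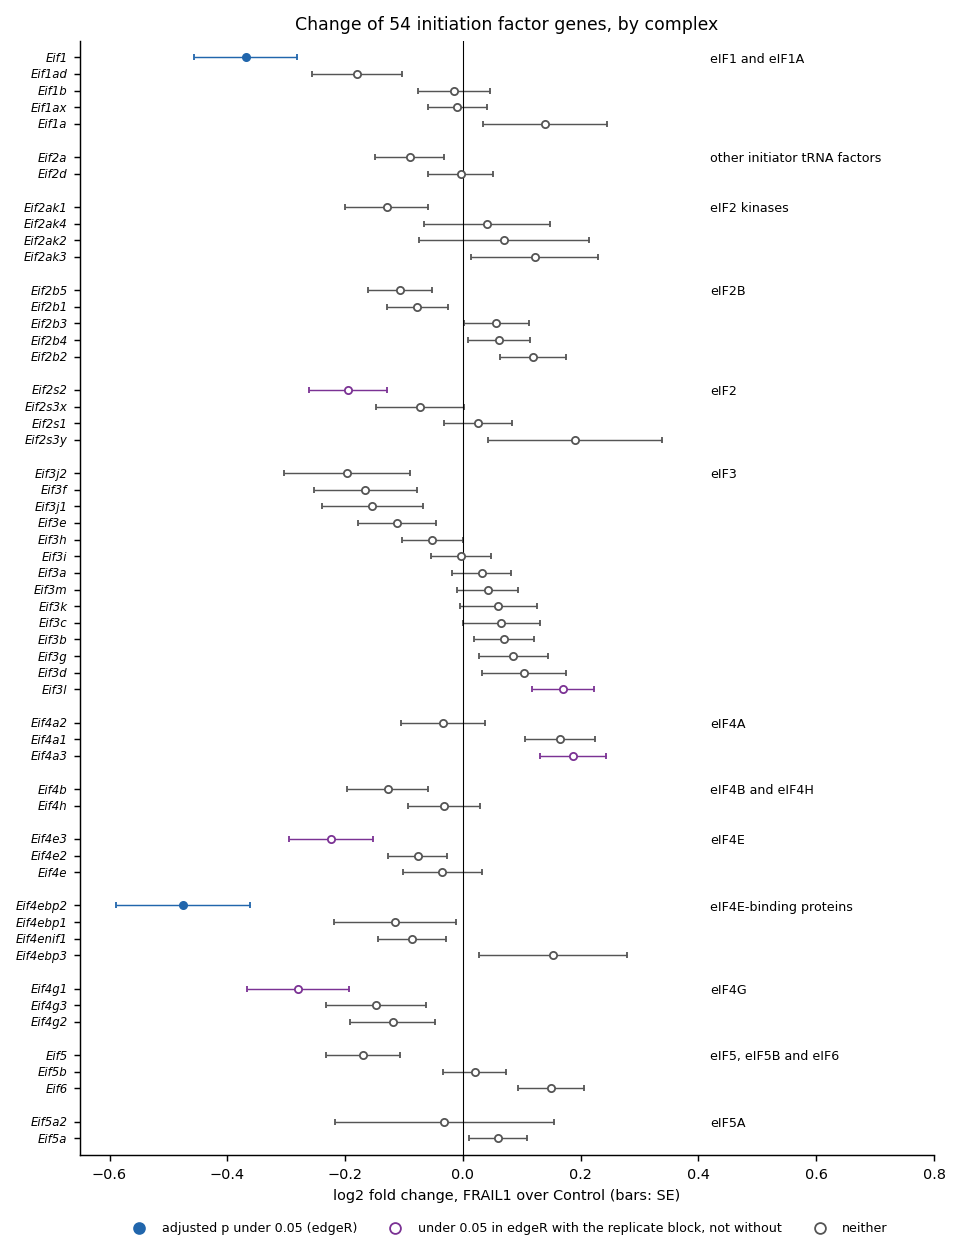
Log2 fold change of *FRAIL1* over Control muscles (x axis, bars are the SE) for the 54 initiation factor genes tested, ordered by complex (y axis). Filled blue points passed an adjusted p of 0.05, purple rings passed it in edgeR with the replicate block but not without, and all but *Eif1*, *Eif4ebp2*, *Eif4g1* and *Eif4e3* lie within 0.2 of 0.

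*Eif1* was the first of the 2 genes that were lower. It lies on chromosome 11 (GRCm38, 100319949 to 100322099, + strand) and encodes eIF1, the small protein that keeps the scanning ribosome open and guards the choice of start codon. *Eif1* ranged from 267 to 297 CPM in Control muscles (median 275) and from 160.3 to 247 CPM in *FRAIL1* muscles (median 217). The groups did not overlap, and the *FRAIL1* muscle was lower in 6 of 6 numbers, with muscle 5 the lowest. The mean fell from 277 ± 10.4 to 215 ± 31.1 CPM (SD, n = 6 each), a log2 fold change of -0.37 ± 0.09 (SE) with an adjusted p of 0.0270 (edgeR's quasi-likelihood test, adjusted by Benjamini-Hochberg). Without *FRAIL1* muscle 5 the log2 fold change was -0.30 with an adjusted p of 0.00732 by the same test. The call was lost, with adjusted p between 0.0547 and 0.0620, when Control muscle 1, 3 or 6 or *FRAIL1* muscle 1 was left out. Those fits called 364 to 537 genes over the whole table, against 974 with all muscles. In them the log2 fold change of *Eif1* was -0.35 to -0.37. A processed pseudogene, *Gm10157*, matches 25.9% of the *Eif1* transcript at 98% identity or more, and reads from that stretch that mapped to both places were not counted.

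The other genes of the eIF1 and eIF1A group did not pass. *Eif1b* encodes a protein closely related to eIF1. It ranged from 23.4 to 27.4 CPM in Control and from 23.4 to 27.8 CPM in *FRAIL1* muscles, so its groups overlapped nearly whole, and its log2 fold change was -0.02 ± 0.06. The adjusted p of *Eif1b* was 0.901. *Eif1ax*, *Eif1a* and *Eif1ad* encode eIF1A and relatives of it. Their log2 fold changes were -0.01, 0.14 and -0.18, with adjusted p of 0.924, 0.408 and 0.144 by edgeR's quasi-likelihood test, and *Eif1ad* was lower in 6 of 6 numbers.

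*Eif4ebp2* was the second gene that was lower and had the most negative log2 fold change of the 54. It lies on chromosome 10 (GRCm38, 61428491 to 61452790, - strand) and encodes 4E-BP2, one of the small proteins that hold eIF4E away from eIF4G. *Eif4ebp2* ranged from 71.2 to 82.1 CPM in Control muscles (median 78.4) and from 36.0 to 68.3 CPM in *FRAIL1* muscles (median 56.6). Every *FRAIL1* muscle lay below every Control muscle, and each was lower than the Control muscle of its number. The mean fell from 77.3 ± 4.67 to 55.6 ± 10.8 CPM (SD, n = 6 each), a log2 fold change of -0.47 ± 0.11 with an adjusted p of 0.0286 (edgeR's quasi-likelihood test, adjusted by Benjamini-Hochberg). Muscle 5 was again the lowest, and without *FRAIL1* muscle 5 the log2 fold change was -0.38 with an adjusted p of 0.00363. Leaving out Control muscle 1, 2, 3 or 6 or *FRAIL1* muscle 1 or 4 took the call away, with adjusted p between 0.0527 and 0.0648. Those fits called 364 to 537 genes over the whole table, against 974 with all muscles. In them the log2 fold change of *Eif4ebp2* was -0.46 to -0.48. No copy of its transcript was found at 98% identity over 100 bases.

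*Eif4ebp1* encodes 4E-BP1, the best known of these binding proteins, and lies on chromosome 8 (GRCm38, 27260327 to 27275656, + strand). It ranged from 48.7 to 61.8 CPM in Control muscles (median 57.1) and from 35.5 to 60.6 CPM in *FRAIL1* muscles (median 54.9). The groups overlapped, with only muscle 5 below all Control muscles. Means were 56.1 ± 4.50 and 51.8 ± 8.73 CPM (SD, n = 6 each), and the log2 fold change of -0.11 ± 0.10 had an adjusted p of 0.500 in edgeR's quasi-likelihood test, or 0.324 with the replicate block. Without *FRAIL1* muscle 5 it was -0.03. *Eif4ebp3*, a low gene at 3.17 to 4.97 CPM over all 12 muscles, had a log2 fold change of 0.15 with an adjusted p of 0.452, and 67.3% of its exons overlap another gene on the same strand. *Eif4enif1*, which encodes the eIF4E transporter 4E-T, had -0.09 with an adjusted p of 0.346.

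**Figure D2:**
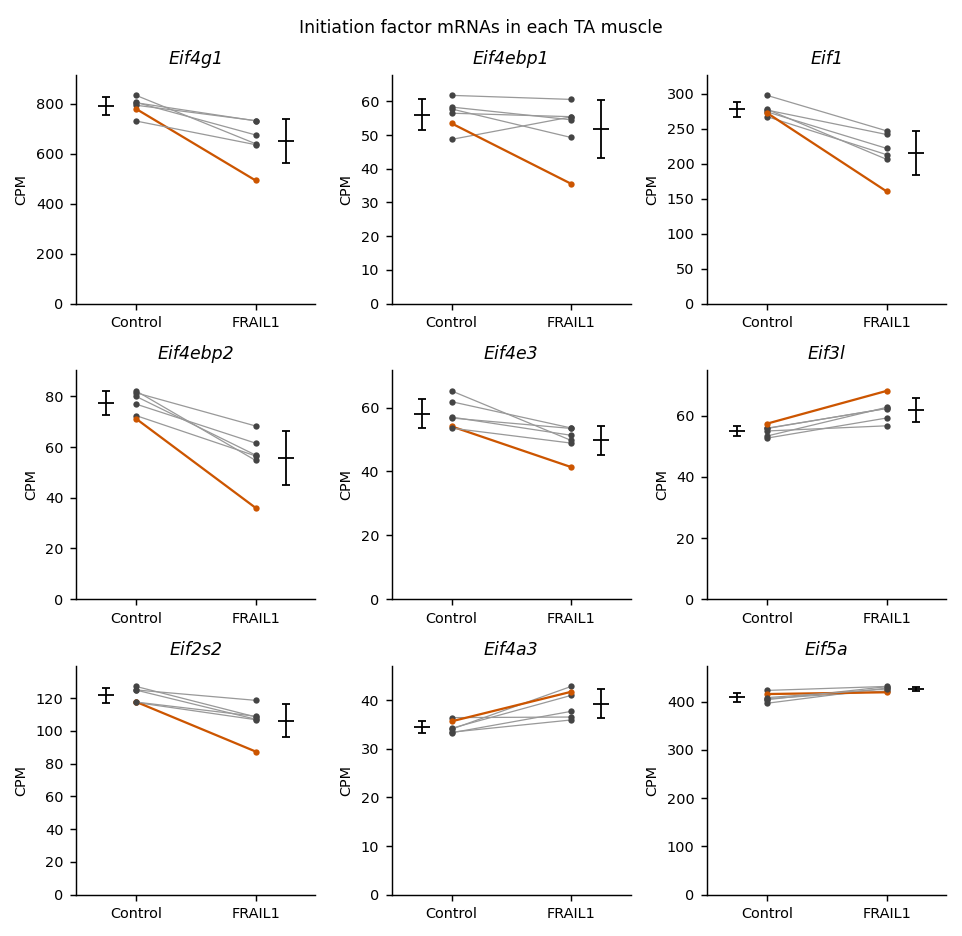
CPM (y axis, from 0) of 9 initiation factor genes in each Control and *FRAIL1* muscle. Lines join the muscles of 1 number, orange marks number 5, and the black marks give the mean and SD of 6 muscles; *Eif1* and *Eif4ebp2* fell in every pair without overlap, and *Eif5a* stayed within 397 to 432 CPM.

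The scaffold and cap-binding genes of eIF4F all had negative values, of which 0 passed edgeR's test without the block and 2 passed it with the block. *Eif4g1*, on chromosome 16 (GRCm38, 20672720 to 20692883, + strand), encodes eIF4GI, the main scaffold that joins the cap, the helicase and eIF3. It ranged from 731 to 834 CPM in Control muscles (median 799) and from 493 to 733 CPM in *FRAIL1* muscles (median 658). The groups touched only where Control muscle 6, at 731, lay just below *FRAIL1* muscles 2 and 3, at 733 and 732, and the *FRAIL1* muscle was lower in 6 of 6 numbers. Means were 791 ± 34.5 and 651 ± 88.4 CPM (SD, n = 6 each). The log2 fold change of -0.28 ± 0.09 had an adjusted p of 0.0611 in edgeR's quasi-likelihood test and of 0.0330 with the replicate block. Without *FRAIL1* muscle 5 the value was smaller, at -0.21, with an adjusted p of 0.0385 by the test without a block. *Eif4g3*, for the related eIF4GII, had -0.15 (adjusted p = 0.274) and *Eif4g2*, for DAP5, which lacks the eIF4E-binding site, had -0.12 (adjusted p = 0.292).

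*Eif4e3* encodes a cap-binding protein of the eIF4E family. It ranged from 53.6 to 65.2 CPM in Control muscles (median 56.9) and from 41.4 to 53.6 CPM in *FRAIL1* muscles (median 50.5). The highest *FRAIL1* muscle exceeded the lowest Control muscle by less than 0.1 CPM, and the *FRAIL1* muscle was lower in 6 of 6 numbers. Its log2 fold change was -0.22 ± 0.07, with an adjusted p of 0.0654 by edgeR's quasi-likelihood test and 0.0275 with the replicate block. Another gene model on the same strand covers 14.8% of its exons, and reads there could have been assigned to either. *Eif4e* itself, the main cap-binding protein, ranged from 88.5 to 112 CPM in Control and from 93.1 to 111 CPM in *FRAIL1* muscles. Its groups overlapped throughout, and the log2 fold change was -0.03 (adjusted p = 0.772). *Eif4e2*, for the repressive homologue 4EHP, had -0.08 (adjusted p = 0.336).

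The helicase genes had values of the opposite sign or near 0. *Eif4a3*, which encodes the helicase of the exon junction complex rather than of eIF4F, ranged from 33.3 to 36.4 CPM in Control muscles (median 34.1) and from 35.9 to 42.8 CPM in *FRAIL1* muscles (median 39.3). The groups overlapped slightly, and the *FRAIL1* muscle was higher in 6 of 6 numbers. The log2 fold change was 0.19 ± 0.06, with an adjusted p of 0.0572 in edgeR's quasi-likelihood test and 0.0461 with the replicate block. *Eif4a1* and *Eif4a2* encode the 2 forms of eIF4A. *Eif4a1* had 0.17 ± 0.06 (adjusted p = 0.0918, higher in 6 of 6 numbers) and *Eif4a2* had -0.03 ± 0.07 (adjusted p = 0.791). A processed pseudogene matches 68.7% of the *Eif4a1* transcript, and reads that mapped to both places were not counted. Of the helicase cofactors, *Eif4b* had -0.13 (adjusted p = 0.237, lower in 6 of 6 numbers) and *Eif4h* had -0.03 (adjusted p = 0.772).

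The eIF2 arm, which delivers the initiator tRNA and responds to stress, had 1 gene that passed edgeR's test with the block and 0 that passed it without. *Eif2s2* encodes the β subunit of eIF2 and ranged from 117 to 127 CPM in Control muscles (median 121) and from 87.4 to 119 CPM in *FRAIL1* muscles (median 108). The ranges overlapped at *FRAIL1* muscle 3 alone, and the *FRAIL1* muscle was lower in 6 of 6 numbers. The log2 fold change was -0.19 ± 0.07, with an adjusted p of 0.0794 in edgeR's quasi-likelihood test and 0.0427 with the replicate block. A processed pseudogene matches 39.0% of its transcript. *Eif2s1*, for the α subunit that the stress kinases phosphorylate, was between 36.9 and 46.8 CPM over all 12 muscles and had 0.03 (adjusted p = 0.802). The γ subunit has a gene on each sex chromosome: *Eif2s3x* had -0.07 (adjusted p = 0.551) and *Eif2s3y* had 0.19 (adjusted p = 0.426).

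*Eif2s3y* was one of the most variable members among Control muscles, from 35.8 to 67.8 CPM, a CV of 24.0%. Its *FRAIL1* muscles ranged from 48.4 to 68.2 CPM and were higher in 6 of 6 numbers, with an adjusted p of 0.0548 with the replicate block. Muscles of 1 number varied together here, since numbers 1 and 5 were the lowest in both groups. None of the 5 eIF2B genes passed with or without the block. Their log2 fold changes ran from -0.11 (*Eif2b5*) to 0.12 (*Eif2b2*), with a smallest adjusted p of 0.178. The 4 eIF2 kinase genes, *Eif2ak1* (HRI), *Eif2ak2* (PKR), *Eif2ak3* (PERK) and *Eif2ak4* (GCN2), had -0.13, 0.07, 0.12 and 0.04. The smallest adjusted p of the kinase genes was 0.246, and mRNA levels say nothing of the activity of a kinase or the phosphorylation of eIF2. *Eif2a* and *Eif2d*, other factors that can bring initiator tRNA, had -0.09 and 0.00.

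eIF3 is the largest of the complexes, with 14 genes tested, of which 8 had positive and 6 negative values and 0 passed edgeR's test without the block. The log2 fold changes ran from -0.20 (*Eif3j2*) to 0.17 (*Eif3l*), with a median of 0.04. *Eif3l*, for a peripheral subunit, ranged from 52.7 to 57.4 CPM in Control muscles (median 55.4) and from 56.7 to 68.2 CPM in *FRAIL1* muscles (median 62.4). *FRAIL1* muscle 6 was the only one inside the Control range, muscle 5 was the highest, and all 6 numbers were higher. Its log2 fold change of 0.17 ± 0.05 had an adjusted p of 0.0605 in edgeR's quasi-likelihood test and 0.0420 with the replicate block. The core subunits *Eif3a*, *Eif3b* and *Eif3c* had 0.03, 0.07 and 0.07, with adjusted p of 0.714, 0.396 and 0.542. The counts of *Eif3j1* and *Eif3j2*, for the loosely bound j subunit, are uncertain, because copies match 56.0% and 100% of their transcripts, as is that of *Eif3m* (87.7%). For *Eif3d*, 32.9% of the exons overlap an antisense gene, and whether the counting used strand is not given in the sources used here.

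The genes for subunit joining and for eIF5A did not pass in either edgeR fit. *Eif5*, for the GTPase-activating protein of eIF2, ranged from 174 to 211 CPM in Control and from 162 to 184 CPM in *FRAIL1* muscles. It was lower in 6 of 6 numbers, with a log2 fold change of -0.17 ± 0.06 and an adjusted p of 0.10. *Eif5b*, for the GTPase that joins the large subunit, had 0.02 (adjusted p = 0.840), and *Eif6*, for a factor that keeps the subunits apart, had 0.15 (adjusted p = 0.103). *Eif5a* encodes the hypusine-carrying factor that helps the ribosome through difficult stretches. It ranged from 397 to 423 CPM in Control muscles (median 407) and from 419.6 to 432 CPM in *FRAIL1* muscles (median 427). Although all 6 numbers were higher, the log2 fold change was 0.06 ± 0.05 with an adjusted p of 0.453. *Eif5a* was also the steadiest of the named genes, with a CV of 2.27% in Control and 1.14% in *FRAIL1* muscles. *Eif5a2*, its relative, was far lower, at 1.22 to 2.24 CPM in Control muscles.

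The remaining 3 members were not tested. *Eif4e1b*, a relative of *Eif4e* known from oocytes, had between 0 and 10 counts per muscle, and *Eif4a3l1* had between 2 and 10. *Eif2c5* had 0 counts in all 12 muscles.

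Per length of exon, the members spanned a wide range of levels in Control muscle, from 0.331 CPM per kb for *Eif5a2* to 209.9 CPM per kb for *Eif1*. Mean levels of the 5 highest were 209.9 ± 7.90 CPM per kb for *Eif1*, 204 ± 4.63 for *Eif5a*, 145 ± 6.33 for *Eif4g1*, 113 ± 9.23 for *Eif4a2* and 102 ± 2.56 for *Eif3h* (SD, n = 6). With these lengths *Eif1* and *Eif5a* did not differ beyond their spread, whereas *Eif4g1* stood below both. The exons of *Eif5a* together span 2008 bases, whereas its reference transcript has 1437, and for *Eif1* both lengths are 1322. Copies match 25.9% of the *Eif1*, 8.70% of the *Eif5a* and 15.5% of the *Eif4a2* transcript, and the reads lost to them were not measured. The order of genes with close levels is therefore uncertain. In *FRAIL1* muscles *Eif5a*, at 212 ± 2.42 CPM per kb, stood above *Eif1*, at 163 ± 23.5. *Eif4g1* and *Eif4a2* were then at 120 ± 16.2 and 110.0 ± 8.37 CPM per kb, which did not differ beyond their spread. The eIF2 kinase genes were among the lowest, from 1.02 CPM per kb for *Eif2ak4* to 13.5 for *Eif2ak1* in Control muscles. The 5 eIF2B genes lay between 5.30 and 31.0, and the 14 eIF3 genes between 7.38 and 102 CPM per kb.

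**Figure D3:**
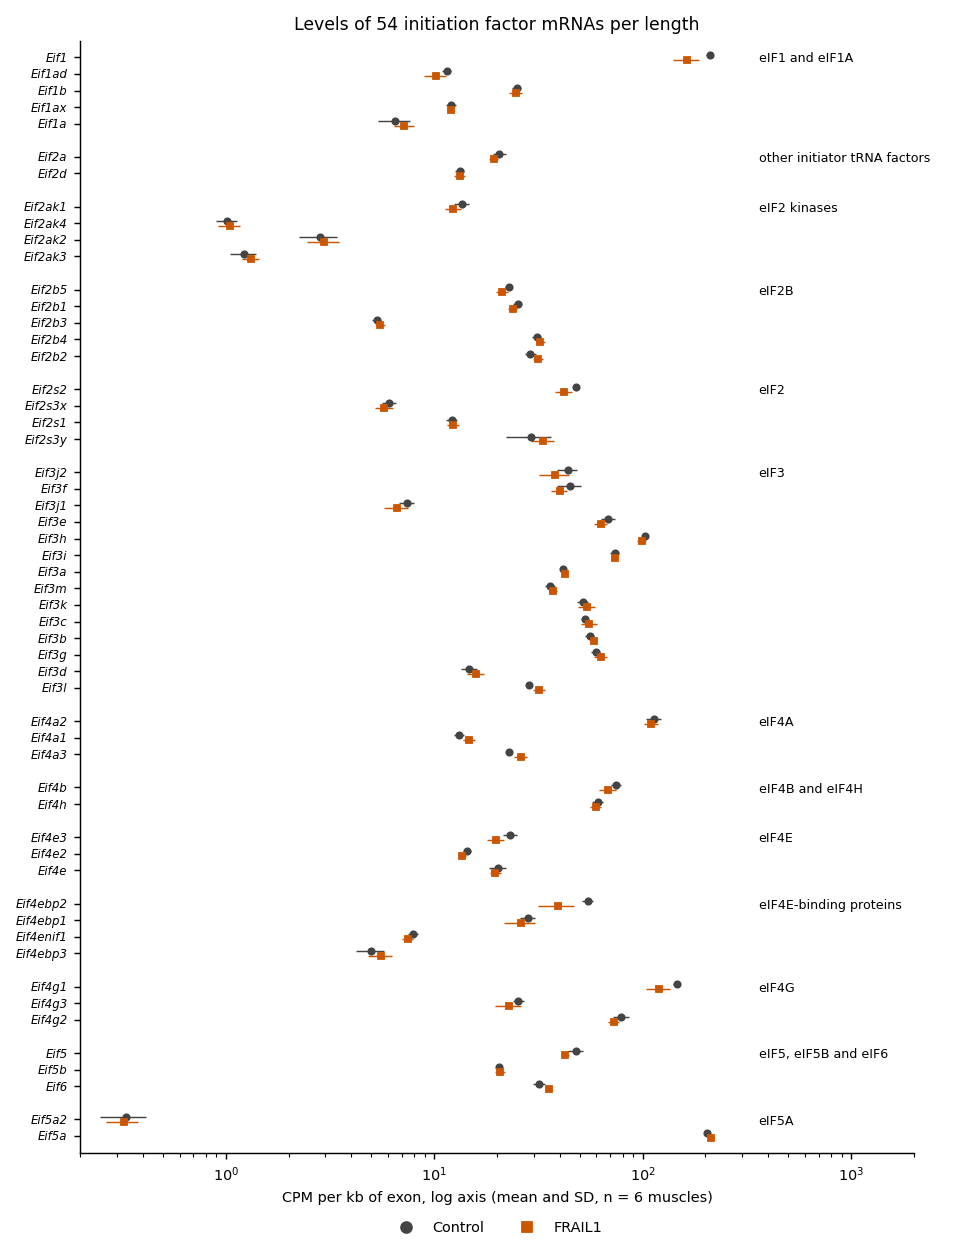
Level per length (x axis, CPM per kb of exon, log axis, mean and SD of 6 muscles) of the 54 initiation factor genes, by complex (y axis), in Control (grey circles) and *FRAIL1* (orange squares) muscles. *Eif1* and *Eif5a* were the highest in Control muscles at 209.9 and 204 CPM per kb, and the pairs of symbols overlap for most genes.

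Ratios between related genes within 1 muscle do not depend on library scaling. The 5 pairs given were chosen after the values were seen, so they are descriptions with no test. Per length, *Eif4ebp2* stood at 1.74 to 2.22 times *Eif4ebp1* in Control muscles (median 1.93) and at 1.42 to 1.58 times in *FRAIL1* muscles (median 1.51). The groups did not overlap, and *FRAIL1* muscle 5, the lowest for both genes, was here close to the other *FRAIL1* muscles at 1.42. *Eif1* stood at 8.03 to 8.92 times *Eif1b* in Control muscles and at 4.52 to 8.07 times in *FRAIL1* muscles, lower in 6 of 6 numbers, with *FRAIL1* muscle 3 alone inside the Control range. The ratio of *Eif4g1* to *Eif4g3* was 5.52 to 6.11 in Control and 4.81 to 5.50 in *FRAIL1* muscles, without overlap. *Eif4e3* to *Eif4e* was 1.04 to 1.36 against 0.906 to 1.08, lower in 5 of 6 numbers. *Eif4a1* was the minor form in every muscle, at 0.109 to 0.144 of *Eif4a2* in Control and 0.111 to 0.161 in *FRAIL1* muscles, higher in 6 of 6 numbers. How many reads were lost to the copies that match 68.7% of the *Eif4a1* and 15.5% of the *Eif4a2* transcript was not measured, so the size of this ratio is uncertain.

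**Figure D4:**
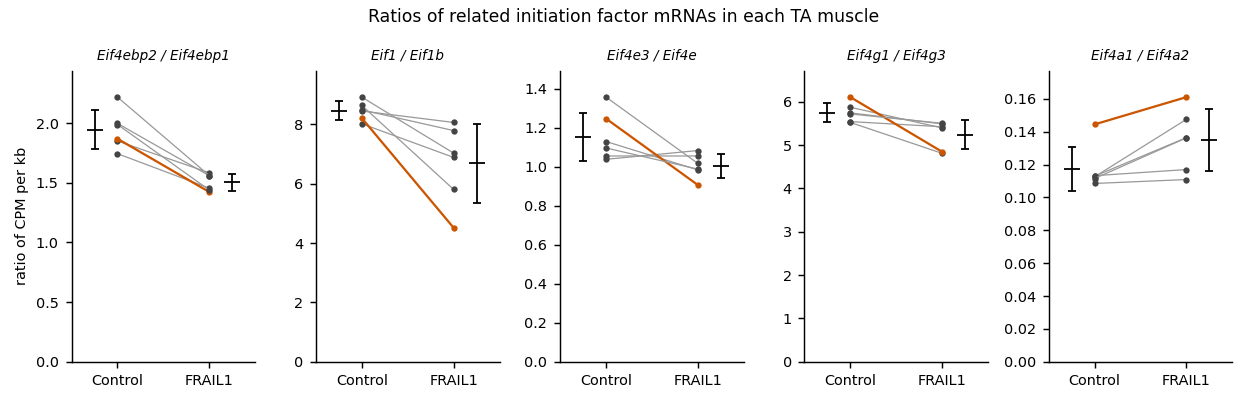
Ratio of CPM per kb (y axis, from 0) for 5 pairs of related initiation factor genes in each Control and *FRAIL1* muscle. Lines join muscles of 1 number, orange marks number 5, and black marks give the mean and SD of 6 muscles; the groups do not overlap for *Eif4ebp2* over *Eif4ebp1* and for *Eif4g1* over *Eif4g3*.

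The start regions of the 3 genes at the centre of these results are shown because genes of the translation machinery are known as targets of Myc, whose binding site is the E-box, CACGTG. Each stretch is the 100 bases before the outermost annotated start (RefSeq promoter table, GRCm38.p6), 5′ to 3′ on the gene's strand, with the E-box in capitals. They are chr11:100319849-100319948 on the + strand for *Eif1*, chr10:61452791-61452890 on the - strand for *Eif4ebp2* and chr16:20672620-20672719 on the + strand for *Eif4g1*.
Eif1: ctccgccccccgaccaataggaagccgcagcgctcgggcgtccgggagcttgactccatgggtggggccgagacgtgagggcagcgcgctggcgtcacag
Eif4ebp2: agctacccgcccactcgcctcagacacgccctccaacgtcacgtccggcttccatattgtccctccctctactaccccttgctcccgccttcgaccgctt
Eif4g1: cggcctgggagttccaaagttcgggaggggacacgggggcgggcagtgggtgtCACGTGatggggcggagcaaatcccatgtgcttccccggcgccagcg
*Eif4g1* holds the motif 47 to 42 bases before its start, and the other two stretches do not hold these letters. In windows of 250 bases before to 50 after the RefSeq start, the motif, which reads the same on both strands, was found in 10 of the 45 members with an entry (22.2%) and in 8.09% of all genes in the table. The 10 were *Eif1b*, *Eif3a*, *Eif3f*, *Eif3k*, *Eif4a1*, *Eif4e*, *Eif4g1*, *Eif4h*, *Eif5a* and *Eif5a2*. Of these, 0 passed the edgeR test without a block, and *Eif4g1* alone passed it with the block. The 8.09% covers 27025 genes, whether or not they were tested here. Binding of Myc or of any other factor to these sites, and its part in the changes, was not tested.

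Genes around initiation were read from 5 lists. Beside their counts stand the shares of all genes tested, 4.43% called higher and 1.85% lower, or 7.48% and 6.62% with the block. Of 23 partners of the initiation factors, 1 was lower and 0 were higher, and 17 had negative values (median -0.07). The 1 gene was *Paip1*, which encodes a protein that binds poly(A)-binding protein and eIF4A, at 53.9 ± 4.05 CPM in Control and 46.0 ± 3.41 CPM in *FRAIL1* muscles (SD, n = 6 each). Its log2 fold change was -0.23 ± 0.06 with an adjusted p of 0.0477 in edgeR's quasi-likelihood test, it was lower in 6 of 6 numbers, and it passed in 2 of the 12 fits that left out 1 muscle. With the block, 4 partners were lower and 1 was higher. Of 16 genes of signalling to initiation factors, mTOR and the phosphatase subunits for eIF2 among them, 0 passed without the block, where 4 had an unadjusted p under 0.05, and with it 2 were lower and 1 was higher. Of 9 mitochondrial translation factors 0 passed in either fit, and 3 had an unadjusted p under 0.05.

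Among 11 elongation and termination factors, 2 were higher and 0 lower in *FRAIL1* muscles. *Eef1a1*, for the elongation factor that delivers aminoacyl-tRNA and that mature fibers largely replace by eEF1A2, had 387 ± 27.9 CPM in Control and 641 ± 143 CPM in *FRAIL1* muscles (SD, n = 6 each). The groups did not overlap, and the log2 fold change was 0.73 ± 0.12 with an adjusted p of 0.00507 in edgeR's quasi-likelihood test. *Eef1b2*, for its exchange factor, had 0.30 ± 0.08 with an adjusted p of 0.0364, and passed in 4 of the 12 fits without 1 muscle. *Eef1a2* itself had 0.00 ± 0.07 with an adjusted p of 0.995.

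Targets of the integrated stress response, the programme that follows phosphorylation of eIF2, held the largest share of calls of the 5 lists. Of 21 genes, 5 were higher and 1 was lower, with a median of 0.35 against 0.01 over all genes, and with the block 10 were higher and 3 lower. Among all genes tested, 4.43% were called higher and 1.85% lower, or 7.48% and 6.62% with the block. Those higher encode enzymes and transporters of amino acids and a secreted factor: *Psat1* (0.95 ± 0.19, adjusted p = 0.0164), *Pycr1* (0.69 ± 0.15, 0.0175), *Fgf21* (2.18 ± 0.49, 0.0229), *Asns* (0.85 ± 0.20, 0.0278) and *Slc7a5* (0.56 ± 0.14, 0.0354), given as log2 fold change with SE and as edgeR's Benjamini-Hochberg adjusted p. *Fgf21* was a low gene, at 0.252 ± 0.157 CPM in Control and 1.16 ± 0.664 CPM in *FRAIL1* muscles. *Asns* and *Slc7a5* passed in 5 and 3 of the 12 fits without 1 muscle. *Atf4*, the transcription factor of this programme, whose mRNA is translated more when eIF2 is phosphorylated, was the 1 gene that was lower. It went from 141 ± 10.4 to 112 ± 11.0 CPM (SD, n = 6 each), with a log2 fold change of -0.33 ± 0.07, an adjusted p of 0.0203 and no overlap between the groups. *Ddit3*, for the stress factor CHOP, had 0.13 with an adjusted p of 0.398. Without both muscles numbered 5, the test without a block called 3 of the 21 higher and 1 lower, with a median of 0.47. With the block and without those muscles, 10 were called higher.

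**Figure D5:**
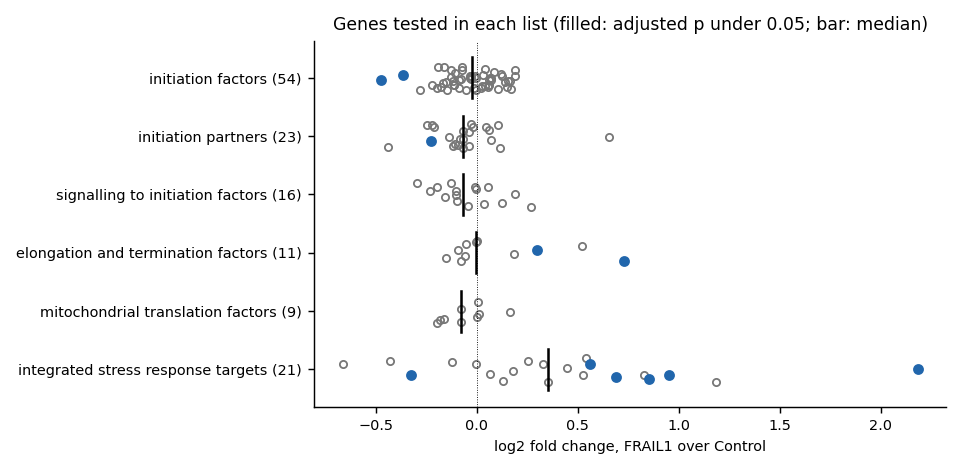
Log2 fold change of *FRAIL1* over Control muscles (x axis) for each gene tested, by list (y axis, number of genes in parentheses). Filled points passed an adjusted p of 0.05 and bars are medians, which lie at -0.02 for the initiation factors and at 0.35 for the targets of the integrated stress response.

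The levels of some cell type marker mRNAs differed between the groups. Whether the makeup of the tissue changed, and its part in the results above, was not tested. In bulk tissue, fewer cells of a type and less RNA per cell cannot be told apart. Of 7 markers of regenerating fibers and satellite cells, 5 were higher (*Myh3*, *Myh8*, *Myog*, *Mymk* and *Mymx*). The summed CPM of the 7 was 167 to 217 in Control and 330.2 to 1558 in *FRAIL1* muscles, with muscle 5 the highest. The myosin genes *Myh3* and *Myh8* had the highest means, 50.9 and 98.3 CPM in Control and 228 and 353 CPM in *FRAIL1* muscles. *Pax7* (0.56, edgeR's adjusted p = 0.0634) and *Myod1* (0.36, adjusted p = 0.0725) were not called without the block. Of 7 mature fiber markers 1 was lower (*Ckm*). Summed fibroblast markers were at 934 to 1774 against 1881 to 4897 CPM, with 0 of 6 genes called and 6 positive values. The collagen genes *Col1a1* and *Col3a1* had the highest means, 449 and 731 CPM in Control and 927 and 1293 CPM in *FRAIL1* muscles. *Dcn* had a log2 fold change of 0.02 (edgeR's adjusted p = 0.948) and *Dpt* 0.30 (adjusted p = 0.387). Summed macrophage markers were at 183 to 295 against 221 to 611 CPM, with 0 of 8 called. Of 5 proliferation markers 1 was higher (*Cdk1*), of 5 endothelial markers 1 was lower (*Tek*), and none of 7 lymphocyte and 5 Schwann cell markers tested was called without the block. With the replicate block, all 7 regenerating markers, 3 of 8 macrophage markers (*Adgre1*, *Csf1r* and *Lyz2*), 4 of 5 proliferation markers and 1 lymphocyte marker (*Cd4*) were higher, and 2 mature fiber and 2 endothelial markers were lower. With the block and without both muscles numbered 5, those called higher were 7 regenerating, 0 macrophage, 3 proliferation, 1 lymphocyte and 2 fibroblast markers. Over all genes tested, 4.43% were called higher and 1.85% lower without the block, and 7.48% and 6.62% with it. No marker of these lists was at 0 in all muscles. *FRAIL1* muscle 5 was the lowest of its group in 23 of the 54 initiation factor genes and the highest in 9. How often it was so among all genes tested was not counted. Without both muscles numbered 5, *Eif1* and *Eif4ebp2* had log2 fold changes of -0.31 and -0.40 with adjusted p of 0.0124 and 0.00450 in edgeR's quasi-likelihood test.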

How the data were processed

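Poly(A)-selected RNA of 12 TA muscles was sequenced as paired-end reads. According to the study's methods and processing notes, the authors trimmed reads with Trimmomatic, mapped them to mm10 with STAR 2.7.8a and deposited whole-number counts of uniquely mapped reads per gene from featureCounts 2.0.1, without normalization. The table lists 27179 genes, 25275 of which have a symbol in the annotation used here. The rest took 0.280% of the counts.

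In edgeR 4.0.16 (R 4.3.3), low genes were removed with filterByExpr, libraries were scaled by TMM, and groups were compared by the quasi-likelihood test with robust estimates and no block, with Benjamini-Hochberg adjustment over all genes tested. The method was tested on simulated data. Alternatives used other scalings and filters, limma 3.58.1, DESeq2 1.42.0, the replicate block and fits without single muscles. Fits without both muscles numbered 5, and all alternatives for the pathway lists, were added after the data were seen. Lengths are exon unions of RefSeq-matched GENCODE transcripts. Copies of at least 98% identity over 100 bases were found with BLAST 2.17.0.

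The members and lists were chosen with earlier results of these data known. Values are given for *Eif4g1*, *Eif4ebp1*, members called without the block or only with it, and the 3 highest per length. Genes of the lists are named where called, up to 5 per list by lowest p. Others named (*Slc7a5*, *Ddit3*, *Eef1a2*, *Col1a1*, *Col3a1*, *Dcn*, *Dpt*) were picked after their values were seen, as were members outside this rule. That both muscles of 1 number come from 1 mouse rests on the design, which used both TAs of each mouse, and on the shared numbers. Deviations from the group means correlated at 0.254, 0.162, 0.282, 0.263, 0.0547 and 0.185 for numbers 1 to 6, with a mean of 0.200 against -0.0400 for other pairs. Of the 720 ways to pair the muscles, 1 gave a mean as high. No library was a copy of another of its group, and pairs across the groups were not checked. Counts near 0 limit low genes, and the error given is the spread between muscles.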

Additional observations from a re-analysis of the deposited data

Results flagged for a closer look

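*Eif1* stood at 297 CPM in Control muscle 6, and its gap to the next Control muscle was 0.657 of the range of the 6 Control muscles, above Dixon's 95% critical value of 0.625. It was the only value of the 9 named genes that stood apart in this way, out of 18 groups of 6 muscles examined, of which chance gives about 1 in 20. Without this muscle the log2 fold change of *Eif1* was -0.35, with an adjusted p of 0.0547 in edgeR's quasi-likelihood test. That fit called 537 genes over the whole table, against 974 with all muscles.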

How the results depend on the processing

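Of the initiation factor genes, 2 were lower and 0 higher in the fit reported. With the replicate block, 5 were lower and 2 higher. DESeq2's Wald test gave 6 and 2, the same test with the replicate block 7 and 0, limma voom 5 and 2, and the replicate block without both muscles numbered 5 gave 6 and 2. Leaving out 1 muscle gave 0 to 5 lower and 0 to 1 higher. Over the 5 pathway lists together, 7 genes were higher and 2 lower. These counts were 14 and 9 with the replicate block, 13 and 8 with DESeq2's Wald test, 13 and 11 with that test and the replicate block, 11 and 7 with limma voom, and 13 and 9 with the replicate block without both muscles numbered 5. Upper-quartile scaling and no filter each gave 1 lower, and leaving out 1 muscle gave 3 to 10 higher and 1 to 4 lower. Calls over the whole table differed between these fits too. They were 974 in the fit reported, 2186 with the replicate block, 2154 with DESeq2's Wald test and 2829 with that test and the block. With limma voom they were 1836, and with the block without both muscles numbered 5 they were 2305. Fits without 1 muscle called 364 to 2110 genes. The cause of these differences was not tested.

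No log2 fold change of the 9 named genes changed sign under the 24 alternatives. *Eif1* kept its call in 20 and *Eif4ebp2* in 18 of the 24, with adjusted p up to 0.0620 and 0.0648. All fits that lost a call left out 1 muscle, and they called 364 to 537 genes over the whole table, against 974. The median of the members lay between -0.04 and -0.01 throughout, and no scaling moved the median of all genes by 0.1. Counting error weighs most on *Eif5a2* and *Eif4ebp3*, which stayed under 5 CPM in every muscle.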
